A study of Mus musculus with 5 samples.

Results

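Genes named for the fibroblast growth factors (FGFs), the transforming growth factor beta (TGF-β) family and their secreted antagonists were examined for SUZ12 peaks in mouse embryonic stem cells (ESCs) that lack Mbd3. Members were chosen by name: every symbol in any peak table that starts with Fgf, Bmp, Gdf, Grem or Tgfb and a digit, or with Inhb, Nodal, Lefty or Chrd, and Nog. This gave 26 of the 1942 symbols in the tables. The RefSeq gene table holds 61 protein-coding symbols that follow the same rule, so 35 were in no table. The description as ligands and antagonists holds for 24 of the 26. Bmp1 encodes a secreted metalloprotease that cleaves procollagen and chordin, and Fgf12 encodes an FGF homologue that stays inside the cell. Both were kept, since the rule goes by name.

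SUZ12 belongs to PRC2, the Polycomb complex that methylates histone H3 at repressed developmental genes, and its sites were found by ChIP-seq, the sequencing of DNA that comes down with an antibody. All 4 cultures were male 129SV Mbd3-knockout ESCs grown with LIF, with 1 library each. ΔCC and ΔMBD carried a form of MBD3a without the coiled-coil or without the methyl-CpG-binding domain. WT and GFP are named in the labels by these words alone and are taken here as full-length MBD3 and as the control without MBD3. An input library without antibody, from EBRTcH3 ESCs, was not used here. How the proteins were expressed, and whether a culture was a single clone, is not given in the sources used here. A peak table shows neither the Mbd3 deletion nor the expression of stem cell markers.

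FGFs are secreted proteins that bind receptor tyrosine kinases. Ligands of the TGF-β family, among them the bone morphogenetic proteins (BMPs), growth differentiation factors (GDFs) and activins, bind receptor serine/threonine kinases that act through Smad proteins. Noggin, chordin and gremlin bind BMPs outside the cell and keep them from their receptors. In the early embryo these signals pattern the germ layers, and many of their genes are held by Polycomb in ESCs until differentiation.

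Among the 26 members, 16 (61.5%) had a peak in every library and 10 did not, beside 46.5% in every library over all 1935 genes listed in any. A gene was counted as listed where at least 1 peak was linked to it with its centre within 5 kb of the start site. Bmp4, Bmp8b, Chrd, Fgf2 and Tgfb1 (19.2% of the members) were listed in ΔMBD and WT only, as were 19.0% of all listed genes. Fgf15 and Gdf10 (7.69% of the members) were listed in ΔCC, ΔMBD and WT, and not in GFP, as were 8.73% of all listed genes. Fgf10 and Tgfb2 (7.69%) were listed in ΔMBD alone, beside 6.72% of all listed genes. Chrdl2 (3.85%) was listed in WT alone, beside 6.87% of all listed genes. Each difference is between lists of single libraries of unknown depth, so none has a replicate check or a test.

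The sequences below are the 250 bases before the start sites of 4 of the 10 genes whose listing differed, shown as examples of the promoters of these genes. They are the 4 with a RefSeq promoter whose window overlaps no annotated gene. Bmp4 and Tgfb1 stand for listing in ΔMBD and WT only, Gdf10 for listing in every library but GFP, and Fgf10 for listing in ΔMBD alone. The windows are chr14:46390670-46390919 on the minus strand for Bmp4, chr7:25686752-25687001 for Tgfb1, chr14:33923337-33923586 for Gdf10 and chr13:118714449-118714698 for Fgf10, the last 3 on the plus strand. They come from RefSeq on GRCm38.p6, whereas the peaks were placed on mm9, so these coordinates place no peak. By the distances in the files, only the ΔCC peak of Gdf10, at -111 bp, was centred as close upstream as these windows reach; the other peaks of these 4 genes were centred outside them. Each sequence runs 5′ to 3′ and ends 1 base before the start site. Capitals mark CG dinucleotides, the site of DNA methylation, which are dense at most promoters bound by PRC2 in ESCs.
Bmp4: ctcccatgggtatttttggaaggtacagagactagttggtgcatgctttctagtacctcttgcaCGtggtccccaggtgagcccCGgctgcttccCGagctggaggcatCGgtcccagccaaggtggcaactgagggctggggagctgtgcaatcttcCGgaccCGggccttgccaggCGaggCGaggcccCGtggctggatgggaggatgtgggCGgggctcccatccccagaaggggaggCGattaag
Tgfb1: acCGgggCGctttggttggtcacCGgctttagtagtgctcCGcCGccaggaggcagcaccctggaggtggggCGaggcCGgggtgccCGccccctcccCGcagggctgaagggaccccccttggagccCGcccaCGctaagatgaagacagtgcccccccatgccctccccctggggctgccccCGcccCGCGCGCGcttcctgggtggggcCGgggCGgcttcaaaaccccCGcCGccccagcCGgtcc
Gdf10: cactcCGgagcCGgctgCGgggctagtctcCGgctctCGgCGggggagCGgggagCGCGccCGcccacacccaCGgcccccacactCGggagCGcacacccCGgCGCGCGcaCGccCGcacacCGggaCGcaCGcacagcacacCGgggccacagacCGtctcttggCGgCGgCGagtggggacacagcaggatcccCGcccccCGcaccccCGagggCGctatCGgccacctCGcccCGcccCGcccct
Fgf10: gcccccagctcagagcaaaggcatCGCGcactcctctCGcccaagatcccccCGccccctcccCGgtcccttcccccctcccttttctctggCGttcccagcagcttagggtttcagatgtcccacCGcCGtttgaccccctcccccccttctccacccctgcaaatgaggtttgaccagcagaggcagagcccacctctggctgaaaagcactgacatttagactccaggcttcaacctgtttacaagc

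The motif searched was CG, which reads the same on both strands and cannot overlap itself, and 93.4% of the 21263 promoters of protein-coding genes held it at least once. The Gdf10 window held 35 CG, a number reached by 3.79% of those promoters. Tgfb1 held 21 CG, reached by 21.5%, Bmp4 held 11, reached by 47.5%, and Fgf10 held 8, reached by 55.6%. The 4 windows thus ran from dense to near the middle of all promoters. A comparison of CG content between members with different listing is void, because the promoter table matched 16 of the 26 members (61.5%).

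In each library a higher share of the family was listed than of all protein-coding genes. Of the 61 family genes, 18 (29.5%, exact 95% binomial interval 18.5 to 42.6) were listed in ΔCC, against 5.37% of the 21900 protein-coding genes. ΔMBD listed 25 (41.0%, 28.6 to 54.3), against 7.37%. WT listed 24 (39.3%, 27.1 to 52.7), against 7.32%. GFP listed 16 (26.2%, 15.8 to 39.1), against 4.61%. The order of the libraries was the same in the family as in all genes, and the intervals of the 4 family shares overlapped. Such intervals cover counting error over genes only. The family was chosen with earlier results of these data known, so an excess over all genes was not tested.

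**Figure D1:**
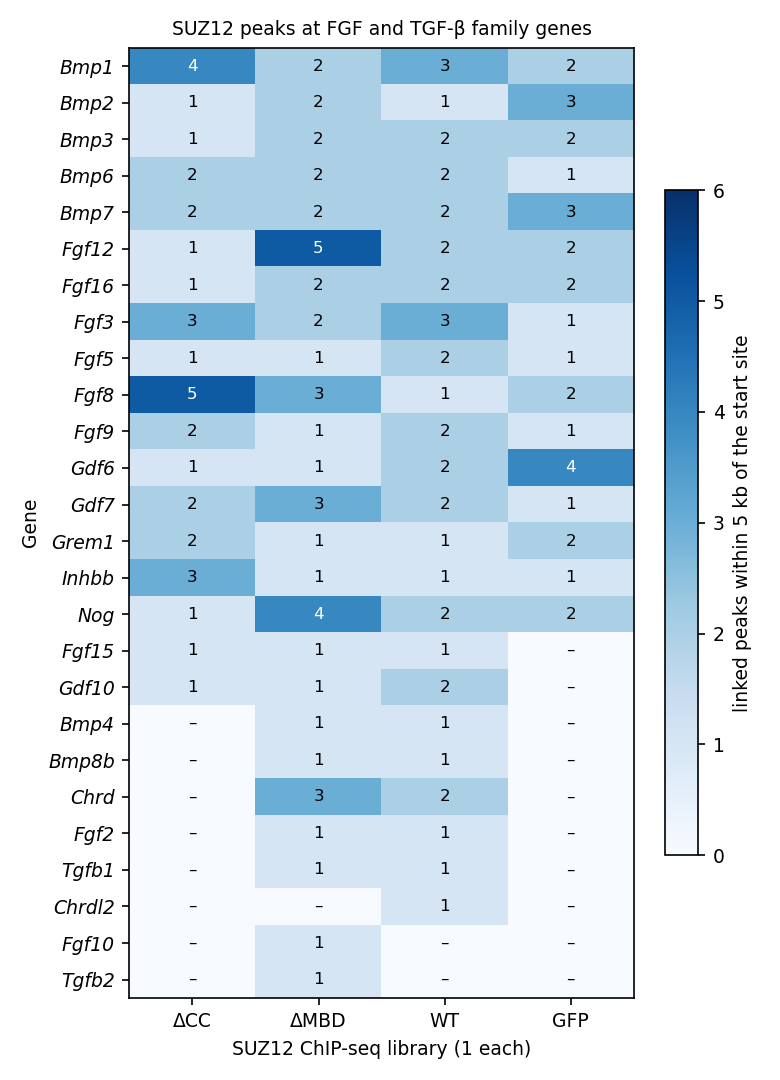
Number of linked SUZ12 peaks within 5 kb of the start site for the 26 members (rows) in the ΔCC, ΔMBD, WT and GFP libraries (columns, 1 library each); a dash is a gene not listed. The upper 16 genes are listed in every library, and no gene below them has a GFP peak.

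Among the secreted FGF ligands, 7 of 15 were listed in any library, and 5 of these in every one: Fgf3, Fgf5, Fgf8, Fgf9 and Fgf16. Fgf8, a signal of gastrulation, limb and brain organisers, had 5 peaks in ΔCC, 3 in ΔMBD, 1 in WT and 2 in GFP. The ΔCC peaks were centred at -3078, -1633, -669, +945 and +4479 bp from the start site, and the ΔMBD peaks at -3004, -1952 and +445 bp. The WT peak was at +530 bp, and the GFP peaks were at -518 and +1569 bp. ΔCC and ΔMBD thus had centres at -1633 bp or farther upstream, which WT and GFP lacked. Of these, the ΔCC peak at -3078 bp and both upstream ΔMBD peaks were also linked to the neighbour Npm3.

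Fgf3, a ligand of the inner ear and hindbrain, had peaks at -2121, +390 and +2096 bp in ΔCC, at -2333 and +527 bp in ΔMBD and at -2009, +229 and +2978 bp in WT. GFP had a single Fgf3 peak, at +627 bp. The centre near the start site was therefore in every library, and the upstream one, about 2 kb away, in all but GFP. Fgf5, a marker of the primitive ectoderm, had its closest peak at +500 bp in ΔCC, +690 bp in ΔMBD, +443 bp in WT and +613 bp in GFP, a spread of 247 bp. That was the tightest placement of a closest peak among the 16 genes listed in every library. WT had a further Fgf5 peak at +1652 bp.

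Fgf9, which acts in testis and lung, had peaks at -629 and +3700 bp in ΔCC, +142 bp in ΔMBD, +92 and +4884 bp in WT and +16 bp in GFP. The WT peak at +4884 bp was the farthest of any member peak inside the 5 kb limit, and no member had a peak beyond it. Fgf16, an X-linked ligand of the heart, had peaks at +180 bp in ΔCC, +1284 and +2027 bp in ΔMBD, -344 and +2543 bp in WT and -63 and +1378 bp in GFP. The Fgf16 centres spread on both sides of the start site and no position held a centre of all 4 libraries within 1 kb.

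The secreted FGF ligands whose listing differed had a single peak wherever they had any. Fgf2, the basic FGF, had a peak at +257 bp in ΔMBD and +156 bp in WT, and none in ΔCC or GFP. Fgf10, which drives the budding of limb and lung, had a peak at -931 bp in ΔMBD and none in ΔCC, WT or GFP. Fgf1, Fgf4, Fgf6, Fgf7, Fgf17, Fgf18, Fgf20 and Fgf22 were in no table.

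Among the endocrine FGFs, Fgf15, the mouse counterpart of human FGF19 and a hormone of bile acid control, was the single gene of 3 that was listed. Its peak lay at -60 bp in ΔCC, +73 bp in ΔMBD and +530 bp in WT, and GFP had none. Fgf15 follows Fgf3 and Fgf4 along the chromosome in the RefSeq table. The last Fgf3 peak and the Fgf15 peak had successive numbers in the call sets, 3101 and 3102 in ΔCC, 3946 and 3947 in ΔMBD and 3551 and 3552 in WT. Within genes the numbers ran in the order of the centres, in ΔMBD at 909 of the 910 genes with several peaks and in the other libraries at all of them. If they do so between genes too, no peak was centred between Fgf3 and Fgf15 in these 3 libraries, a stretch that holds Fgf4. As background, Fgf4 is the FGF that mouse ESCs themselves secrete.

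Of the 4 intracellular FGF homologues, which bind voltage-gated sodium channels, Fgf12 alone was listed. It had 1 peak in ΔCC, at -417 bp, and 5 in ΔMBD, at -4840, -4101, -3533, -423 and +2317 bp. WT had Fgf12 peaks at -2743 and -1291 bp, and GFP at -2285 and -1019 bp. The ΔMBD library thus held 3 centres at -3533 bp or farther upstream, which no other library had. RefSeq gives 4 promoters for Fgf12, and the files do not say which start site the distances refer to.

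Among the BMP ligands, 6 of 10 were listed in any library: Bmp2, Bmp3, Bmp6 and Bmp7 in every one, and Bmp4 and Bmp8b in ΔMBD and WT only. Bmp4, a signal for mesoderm and for germ cells, had 1 peak at +1251 bp in ΔMBD and 1 at +1641 bp in WT. Bmp8b, which acts with Bmp4 in germ cell formation, had 1 peak at +158 bp in ΔMBD and 1 at +84 bp in WT. The centres of both genes lay downstream of the start site, 390 bp apart for Bmp4 and 74 bp apart for Bmp8b. Bmp5, Bmp8a, Bmp10 and Bmp15 were in no table. Bmp8a and Bmp8b are similar paralogs, and how reads that match both were treated is not given in the sources used here.

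Bmp2, which acts in heart and bone, had a peak at +1420 bp in ΔCC, at -1004 and +1757 bp in ΔMBD, at +1050 bp in WT and at +1311, +2887 and +3428 bp in GFP. Every library had a Bmp2 centre between +1050 and +1757 bp, and the farther downstream centres were in GFP alone. Bmp7, a signal of kidney and eye, had peaks at -1062 and +1533 bp in ΔCC, +641 and +2367 bp in ΔMBD, +636 and +3671 bp in WT and -85, +655 and +1597 bp in GFP. No Bmp7 centre beyond +2 kb was listed in ΔCC or GFP. Bmp6, which controls iron balance, had peaks at +226 and +1800 bp in ΔCC, -1277 and -138 bp in ΔMBD, +306 and +3861 bp in WT and +713 bp in GFP.

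Bmp3, a BMP of bone, had a peak at +851 bp in ΔCC, -1064 and +1346 bp in ΔMBD, -1038 and +821 bp in WT and +563 and +1280 bp in GFP. An upstream Bmp3 centre was thus in ΔMBD and WT and not in ΔCC or GFP. Bmp3 and Fgf5 are separated in RefSeq by 1 protein-coding gene, Cfap299, which was not listed. The peaks that face each other across it had successive numbers in every library, 2597 and 2598 in ΔCC, 3264 and 3265 in ΔMBD, 2954 and 2955 in WT and 2100 and 2101 in GFP.

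Among the GDF ligands, 3 of 10 were listed: Gdf6 and Gdf7 in every library and Gdf10 in all but GFP. Gdf6, which acts in joints and the eye, had peaks at +436 bp in ΔCC, +1407 bp in ΔMBD, -1529 and +759 bp in WT and -396, +538, +3313 and +4810 bp in GFP. GFP, with the shortest gene list, thus held the most Gdf6 peaks. Gdf7, a roof plate signal of the spinal cord, had peaks at -1867 and +2770 bp in ΔCC, at -1196, -538 and +4076 bp in ΔMBD and at -633 and +3368 bp in WT. The GFP peak of Gdf7 lay at +1318 bp, more than 1 kb from every peak of the other libraries. Gdf10, a relative of Bmp3, had a peak at -111 bp in ΔCC, +401 bp in ΔMBD and -792 and +268 bp in WT. Gdf1, Gdf2, Gdf3, Gdf5, Gdf9, Gdf11 and Gdf15 were in no table.

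Inhbb, the subunit of activin B, was the single gene of the 4 activin and inhibin β subunits that was listed. It had peaks at +310, +2958 and +3845 bp in ΔCC, and 1 peak at +592 bp in ΔMBD, +791 bp in WT and +271 bp in GFP. The centre near the start site was shared by all libraries, and the distant pair was in ΔCC alone. Nodal, Lefty1 and Lefty2 were in no table, and as background these are active genes of mouse ESCs. Of the 3 TGF-β ligands, 2 were listed in any library and none in ΔCC or GFP, which lacked 34.1% and 41.2% of all WT genes. Tgfb1, a regulator of immune cells and matrix, had a peak at +1035 bp in ΔMBD and +1229 bp in WT, and Tgfb2, which acts in the heart and palate, had a peak at +1252 bp in ΔMBD alone.

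Of the 6 extracellular antagonists, Nog and Grem1 were listed in every library, Chrd in ΔMBD and WT, and Chrdl2 in WT. Nog (noggin) had 1 peak at +673 bp in ΔCC and 4 in ΔMBD, at +1211, +2685, +3483 and +4461 bp. WT had Nog peaks at +1182 and +4198 bp, and GFP at +1003 and +2776 bp. All Nog centres lay downstream of the start site. Grem1 (gremlin) had peaks at -1062 and +376 bp in ΔCC, +608 bp in ΔMBD, +1103 bp in WT and -40 and +943 bp in GFP.

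Chrd (chordin) differed most among the genes not listed in every library, with 3 peaks in ΔMBD, 2 in WT and none in ΔCC or GFP. They were centred at -624, +741 and +1821 bp in ΔMBD and at -460 and +746 bp in WT. The upstream peak of both libraries was also linked to the neighbour Thpo. Chrdl2, a chordin-like protein, had its WT peak at -210 bp. Bmp1, the protease that cleaves chordin, was listed in every library, with 4 peaks in ΔCC, 2 in ΔMBD, 3 in WT and 2 in GFP. They were centred at -786, +59, +736 and +1528 bp in ΔCC, -741 and +267 bp in ΔMBD, -1181, -199 and +1750 bp in WT and +432 and +1072 bp in GFP. No Bmp1 centre lay upstream in GFP, and each other library had at least 1 there. In ΔCC, ΔMBD and WT, 4 of these peaks in all were also linked to the neighbour Sftpc.

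**Figure D2:**
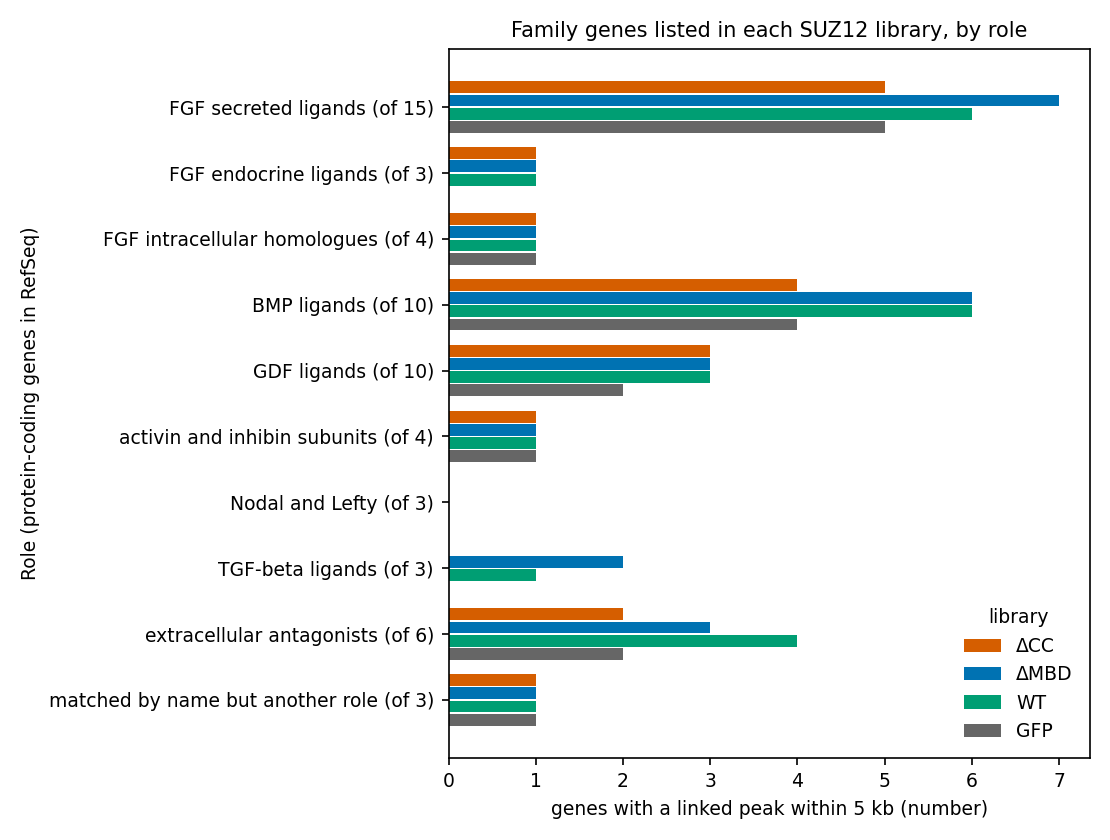
Number of family genes with a linked SUZ12 peak within 5 kb (horizontal axis) by role, for the ΔCC, ΔMBD, WT and GFP libraries (bars, 1 library each); the number of genes in each role is in brackets. No TGF-β ligand is listed in ΔCC or GFP (2 of 3 in ΔMBD and 1 in WT), and no Nodal or Lefty gene in any library.

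The comparison of ΔCC with WT asks which sites are listed without the coiled-coil domain. No member was listed in ΔCC and not in WT (0 of 18, interval 0 to 18.5%), against 10.2% of all ΔCC genes. With peaks required within 1 kb there were 3 such members of 15, Fgf12, Grem1 and Nog. With at least 2 peaks required there were 3 of 9, Fgf8, Grem1 and Inhbb. The share over all genes was not computed at these settings, here or below. Of the 24 WT members, 6 were not listed in ΔCC (25.0%, interval 9.77 to 46.7), namely Bmp4, Bmp8b, Chrd, Chrdl2, Fgf2 and Tgfb1. Over all WT genes the share was 34.1%, within the interval. With peaks required within 1 kb, 6 of 18 WT members were missing from ΔCC, of which 4 were the same genes. With at least 2 peaks required, 8 of 14 were missing, of which 1 was the same gene, Chrd.

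The comparison of ΔMBD with WT asks the same for the methyl-CpG-binding domain. Of the 25 ΔMBD members, 2 were not listed in WT (8.00%, interval 0.984 to 26.0), against 10.7% of all ΔMBD genes. Of the 24 WT members, 1 was not listed in ΔMBD (4.17%, 0.105 to 21.1), against 167 of all 1664 WT genes. With peaks required within 1 kb, 4 of 18 WT members were missing from ΔMBD. At 5 kb the share of all genes lay within the interval in both directions.

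Set directly against each other, ΔCC had no member that ΔMBD lacked (0 of 18, interval 0 to 18.5%), against 8.93% of all ΔCC genes. At 1 kb there were 4 of 15, Bmp3, Fgf16, Gdf6 and Nog, and with at least 2 peaks required 3 of 9, Fgf9, Grem1 and Inhbb. ΔMBD had 7 of 25 members that ΔCC lacked (28.0%, 12.1 to 49.4), against 33.7% of all ΔMBD genes. These were the 5 genes listed in ΔMBD and WT only, with Fgf10 and Tgfb2. At 1 kb ΔCC lacked 6 of 17 ΔMBD members, of which 4 were the same genes. With at least 2 peaks required it lacked 6 of 12, of which 1 was the same gene.

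The comparisons with GFP ask which sites are listed when a form of MBD3 is present. They share the GFP library and are given side by side. ΔCC held 2 of 18 members that GFP lacked (11.1%, 1.38 to 34.7), Fgf15 and Gdf10, against 20.7% of all ΔCC genes. ΔMBD held 9 of 25 (36.0%, 18 to 57.5), against 41.1% of all ΔMBD genes. WT held 8 of 24 (33.3%, 15.6 to 55.3), against 41.2% of all WT genes. Every interval held the share of all genes. At 1 kb, 7 of 18 WT members were missing from GFP, of which 6 were the same genes. With at least 2 peaks required, 7 of 14 were missing, of which 2 were the same genes.

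In the other direction, no GFP member was missing from ΔCC, ΔMBD or WT (0 of 16, interval 0 to 20.6%), against 7.90%, 5.99% and 6.85% of all GFP genes in that order. All 16 GFP members were thus listed in every library, as were 85.6% of all GFP genes. At 5 kb the members of ΔCC were all listed in ΔMBD and in WT, and those of GFP were all listed in ΔCC. At 1 kb this order was lost. It was also lost with at least 2 peaks required, where of 10 GFP members 6 were missing from ΔCC, 2 from ΔMBD and 3 from WT. The share of all GFP genes was computed at neither setting. At 1 kb Bmp7 had no ΔCC peak, Bmp3, Fgf16 and Gdf6 no ΔMBD peak and Grem1 no WT peak, while each had a GFP peak.

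The members were linked to 34 peaks in ΔCC, 45 in ΔMBD, 40 in WT and 30 in GFP. A listed member had 1.89 peaks on average in ΔCC, 1.80 in ΔMBD, 1.67 in WT and 1.88 in GFP, beside 1.91, 1.83, 1.65 and 1.86 over all listed genes in the same order. No member had the same number of peaks in all 4 libraries, and 11 differed by at least 2. For the 10 members not listed in every library, an equal number was impossible. The share over all listed genes was not computed for either count. A number of peaks follows how the caller divided broad regions and gives no binding strength.

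**Figure D3:**
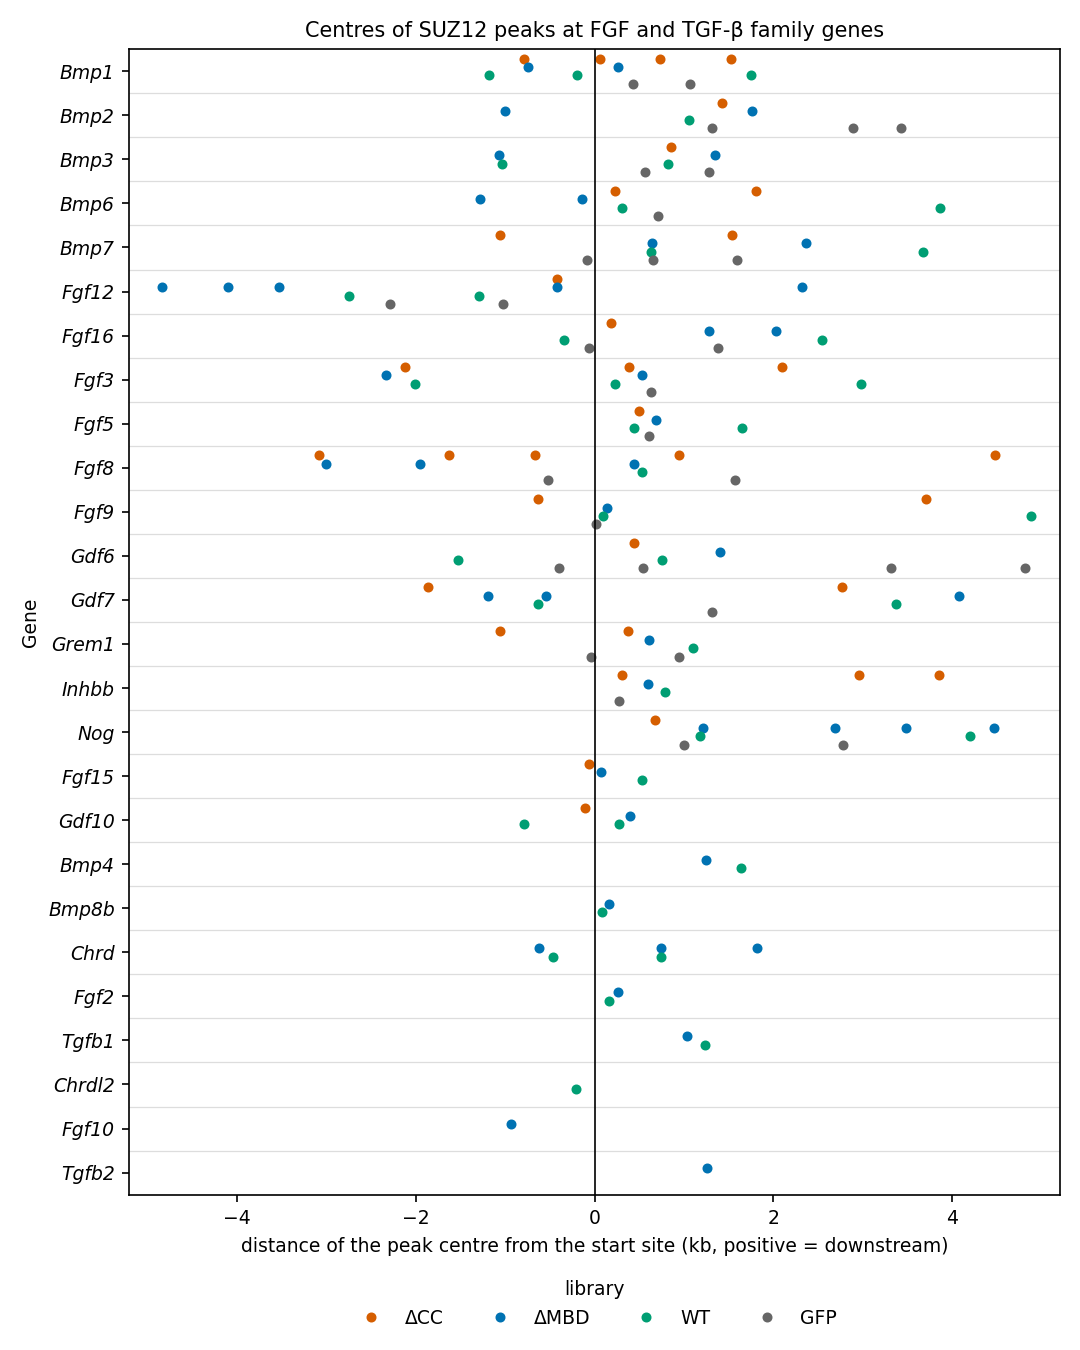
Centres of linked SUZ12 peaks at the 26 members (rows), as distance from the start site in kb (positive is downstream), coloured by library, with ΔCC above ΔMBD, WT and GFP in each row. Most centres lie downstream of the start site, and Fgf12, with 5 ΔMBD peaks, is the gene with the most centres far upstream.

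Peak centres at members lay mostly downstream of the start site. The share downstream was 64.7% (interval 46.5 to 80.3) of 34 peaks in ΔCC, 64.4% (48.8 to 78.1) of 45 in ΔMBD, 70.0% (53.5 to 83.4) of 40 in WT and 76.7% (57.7 to 90.1) of 30 in GFP. Over all genes it was 66.5%, 67.5%, 69.3% and 67.4% in the same order. Centred within 1 kb of the start site were 52.9% of the member peaks in ΔCC, 42.2% in ΔMBD, 50.0% in WT and 50.0% in GFP, beside 47.1%, 49.3%, 52.6% and 46.2% of all peaks. In every library the share of all genes lay within the interval of the member share. Many peaks came from the same gene and are not independent, so the intervals over peaks, here and below, can be too narrow.

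Where a member was listed in every library, some centre of each library was often close to one of the others, with any of its peaks allowed. In 13 of the 16 genes (81.2%) a centre of each library lay within 1 kb of the others, against 75.7% of the 900 genes listed in every library. The exceptions were Fgf8, Fgf16 and Gdf7. The peaks closest to the start site were spread over a median of 1008 bp in the 16 members, beside 988 bp in the 900 genes. Of the 34 ΔCC and 45 ΔMBD member peaks, 67.6% and 71.1% had a WT peak within 1 kb at the same gene, beside 66.4% and 72.2% over all genes. Of the 40 WT member peaks, 57.5% (interval 40.9 to 73.0) had a ΔCC peak this close, 77.5% (61.5 to 89.2) a ΔMBD peak and 40.0% (24.9 to 56.7) a GFP peak. Over all genes these shares were 52.0%, 77.2% and 43.5%. Of the 30 GFP member peaks, 63.3% had a WT peak within 1 kb, beside 65.9% over all genes.

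Other genes of the pathways were listed at lower shares than the family. Of 78 receptors, coreceptors, modulators, Smads and target genes, 14 (17.9%, interval 10.2 to 28.3) were listed in ΔCC, 20 (25.6%, 16.4 to 36.8) in ΔMBD, 18 (23.1%, 14.3 to 34.0) in WT and 13 (16.7%, 9.18 to 26.8) in GFP. Of all protein-coding genes, 5.37% were listed in ΔCC, 7.37% in ΔMBD, 7.32% in WT and 4.61% in GFP, below each of these intervals. The 78 genes were chosen with earlier results of these data known, so an excess over all genes was not tested. The intervals of the pathway genes overlapped those of the family, and the difference was not tested. Of the 21 listed in any library, 9 were listed in every one, beside 46.5% of all genes listed in any. They included the receptor Fgfr3, the FGF receptor partner Flrt2, the activin antagonist Fst (follistatin) and the BMP antagonists Nbl1 and Bmper. The others were Vwc2, the latent TGF-β binding protein Ltbp2, the inhibitory Smad6, and Id2. None of the 13 FGF feedback and target genes, such as the Sprouty genes and Dusp6, was listed (interval 0 to 24.7%), which is not apart from the shares of all protein-coding genes.

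Of the receptors, Fgfr2 was listed in ΔMBD and WT only, with its closest peak at +628 bp in ΔMBD and +142 bp in WT. That pattern, shared by Rgma and Smad3 below, was the one of 19.0% of all listed genes. Tgfbr2 was listed in ΔMBD alone, at -103 bp, as were its ligand gene Tgfb2 and 6.72% of all listed genes. Tgfbr3, Ltbp3 and Kl, the coreceptor for endocrine FGFs, were listed in every library but GFP, as were 8.73% of all listed genes. Rgma, a BMP coreceptor, had 4 peaks in ΔMBD, 1 in WT and none in ΔCC or GFP, and Smad3, a Smad of activin and TGF-β signals, had 2 in ΔMBD, 1 in WT and none in ΔCC or GFP. Rgmb, Crim1 and Sost, an antagonist made by bone cells, were listed in ΔMBD, WT and GFP and not in ΔCC, a pattern of 3.10% of all listed genes and of none of the 26 members. Smad9 was listed in ΔCC alone, at +1039 bp, as were 2.43% of all listed genes. Id4 was listed in all but WT, as were 1.09% of them.

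**Figure D4:**
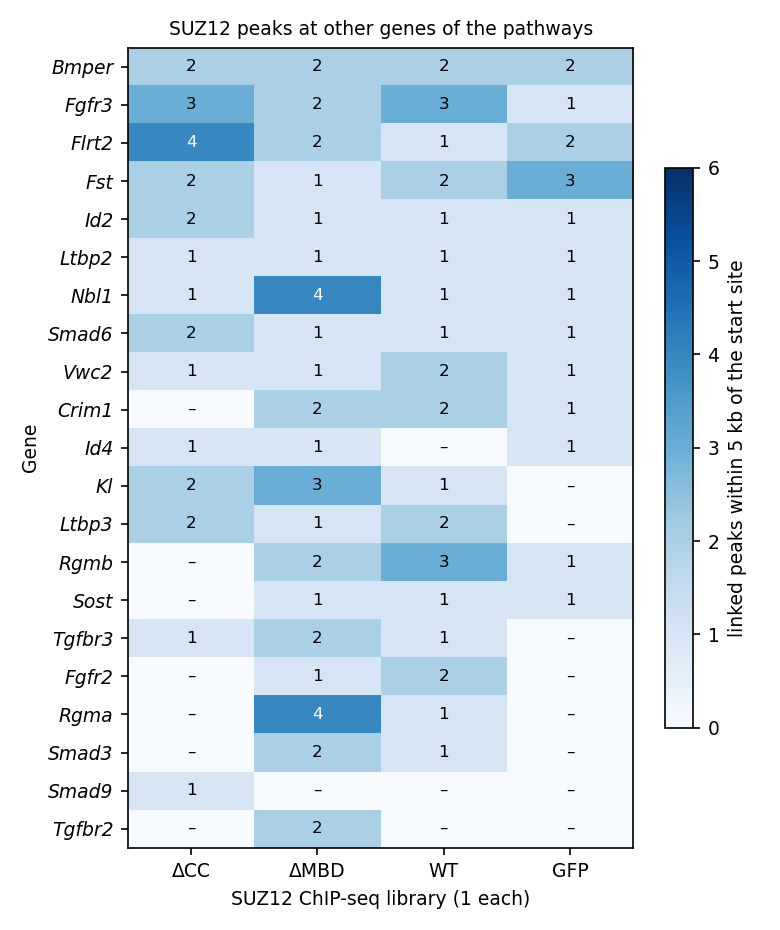
Number of linked SUZ12 peaks within 5 kb of the start site for the 21 listed genes among 78 other genes of the FGF and TGF-β pathways (rows) in the ΔCC, ΔMBD, WT and GFP libraries (columns, 1 library each); a dash is a gene not listed. The upper 9 genes are listed in every library, and Rgma and Nbl1 have 4 peaks in ΔMBD and at most 1 in any other library.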

How the data were processed

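Per the labels' protocols, reads were single-end, from a NextSeq 500. MACS2, bcl2fastq 2.18.0.12 and mm9 appear in the submitters' processing notes; the aligner, the peak threshold and whether the input served as control are not stated there. Per the file headers, the authors linked the peaks of each library to genes with GREAT 3.0.0 (both nearest genes, at most 5000 bp away, plus curated regulatory domains). The deposited tables hold, for each gene, the names of its peaks and their signed distance in bp from the start site. They hold no read number, height, width or p-value, so the depth of each library and the strength of each peak are unknown, and no share was corrected for depth.

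Distances within 5 kb were kept. Of the 1942 symbols, 1833 matched RefSeq (GRCm38.p6) directly and 59 by 1 synonym, which served the shares of protein-coding genes. Libraries were compared by the genes listed and by centres within 1 kb at the same gene, after tests on simulated data. With 1 library per group, no p-value was computed; shares carry exact 95% binomial (Clopper-Pearson) intervals. Every member is named; full values are given for those whose listing differed, with 4 or more peaks, or with numbers of peaks 2 or more apart, and for others that help describe a role. Promoters were to be printed for the 10 members whose listing differed; 8 were matched, and 4 whose window overlaps an annotated gene were left out after the sequences were seen. The common-site count was added after other values were seen. Members and lists were chosen with earlier results of these data known. Alternatives were windows of 1 kb and 2 kb, all deposited pairs, at least 2 peaks, signalling members only, peaks linked to a single gene, other matching distances, and joined peaks. Python 3.11.15, SciPy 1.17.1 and matplotlib 3.10.9 were used.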

Additional observations from a re-analysis of the deposited data

How the results depend on the processing

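Of 78 values under alternative settings, 59 stayed within 1.5 times the count reported, or within the interval of the share reported. The other 19 did not. Part of the 59 was fixed in advance. No member peak lay beyond 5 kb, so using all deposited pairs could not change a member list. Signalling members only left out Bmp1 and Fgf12, both listed in every library, so no count of missing members could change. Counts were compared by size and not by which genes they held. A 2 kb window left the member lists of all 4 libraries unchanged, as did all deposited pairs and leaving out peaks linked to a second gene. With at least 2 peaks required, 9 members were listed in ΔCC, 12 in ΔMBD, 14 in WT and 10 in GFP, 2 were listed in every library, and 4 WT members were missing from ΔMBD. With a 1 kb window, 7 members were listed in every library and 4 WT members were missing from ΔMBD. The member peaks were then 18 in ΔCC, 19 in ΔMBD, 20 in WT and 15 in GFP. These settings keep fewer peaks by construction. With centres within 500 bp, 32.5% of the WT member peaks were matched in ΔCC and 57.5% in ΔMBD, and with 2000 bp 60.0% were matched in GFP. Within 500 bp of the start site lay 32.4% of the member peaks in ΔCC, 20.0% in ΔMBD, 27.5% in WT and 23.3% in GFP. No paired analysis was possible because each group has 1 library. Depth is unknown, so a gene that is not listed was not shown to lack SUZ12.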
